A study of Mus musculus with 24 samples.

Results

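The immortalized MycKO fibroblasts were compared with the immortalized wild-type (WT) fibroblasts in 6 RNA-seq libraries, 3 of each group, out of the 24 libraries of the series. Mouse embryonic fibroblasts (MEFs) are cells cultured from whole embryos (here pooled within each genotype), and the cells carried floxed alleles and a CreER transgene under the ubiquitous ROSA26 promoter, whose Cre recombinase acts only when 4-hydroxytamoxifen (4OHT) is present. Both groups had been transduced with a lentivirus that encodes the SV40 T-antigen and blasticidin resistance and had been selected with blasticidin. MycKO cells had then been exposed to 4OHT to excise both Myc alleles, and WT cells had not. Every gene with at least 1 CPM (read counts scaled to library size) in at least 3 of the 12 libraries of the immortalized table was tested, which kept 12880 of 41710 genes. The remaining immortalized libraries, MlxKO and DKO (double knockout of Myc and Mlx), and the primary MEFs of the same genotypes were used where they show what differs. Knockout and WT cells were separate immortalized cultures and differed in 4OHT exposure, so Myc excision, 4OHT exposure and the culture cannot be told apart, and neither can ploidy, which these libraries do not measure. By cell-cycle analysis the paper found that most immortalized MycKO cells had become tetraploid or pseudo-tetraploid, whereas DKO cells stayed euploid. The authors mostly let 1 WT line stand for all of them. The titles number the replicates and the methods give triplicate RNAs, and neither says that these came from separate derivations. P-values therefore measure the spread between these libraries, which may be technical. For the primary MEFs the authors call the RNA-seq replicates biological.

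Myc is a transcription factor that binds DNA as a dimer with Max, most readily at the E-box CACGTG, and raises the expression of genes for ribosomes, nucleotide and amino acid metabolism, glycolysis and cell division. The Mxd proteins, Mnt and Mga compete for Max and act against Myc. A parallel branch, in which Mlx pairs with the glucose-responsive MondoA (Mlxip) or ChREBP (Mlxipl), reads an overlapping set of sites. Fibroblasts are known for making collagen and other matrix proteins, and in culture they can take on contractile features. SV40 T-antigen binds and blocks p53 and the retinoblastoma proteins.

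Depth was alike in the 6 libraries: 17541112, 17887100 and 17698255 reads in WT libraries 2, 3 and 4 and 19851300, 18831710 and 18327981 reads in MycKO libraries 9, 10 and 11, recovered from the smallest step of each library's values. Libraries are named by the numbers that their columns carry. One library of each group stood apart. WT library 4 correlated with WT libraries 2 and 3 at r = 0.950 and 0.943 across the tested genes, against 0.992 between the latter, and 327 genes lay more than 4-fold from the mean of the other WT libraries in it, against 34 and 58 for WT libraries 2 and 3. Mest, an imprinted gene of the mesoderm, was at 1696, 1712 and 115 CPM in WT libraries 2, 3 and 4. Among genes chosen after their values were seen, the Y-linked RNA helicase Ddx3y was at 6.56, 4.61 and 106 CPM in the WT libraries and 19.1, 20.8 and 19.8 CPM in the MycKO libraries. Xist, the RNA that silences 1 X chromosome in female cells, was at 2114, 1574 and 549.7 CPM in WT libraries 2, 3 and 4 and 396, 526 and 483 CPM in MycKO libraries 9, 10 and 11. WT library 4 was thus high in a Y-linked gene and low in Xist beside the other WT libraries, and the MycKO libraries lay nearer to it in Xist. Whether it comes from the line its label names cannot be told from the files, and it was kept under its label. MycKO library 9 held 217 genes more than 2-fold above the mean of the other MycKO libraries, with a median transcript length of 2068 bases against 4408 bases for all tested genes, and 24 genes more than 2-fold below. Counts of lists are therefore given with a named library left out, or as the range found when each of the 6 libraries was left out in turn.

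Between immortalized MycKO and WT, 6176 of 12880 genes were called at an adjusted p under 0.05 (limma, Benjamini-Hochberg over all tested genes), which is 48.0% of them. Of these, 3147 (24.4%) were higher and 3029 (23.5%) were lower in MycKO, and the median change of all genes was -0.0010 on the log2(CPM + 1) scale. Differences were often small: 1845 of the called genes changed by at least 1 on the log2 scale. In 6576 genes (51.1%) the 3 MycKO libraries did not overlap the 3 WT libraries. Without WT library 4, 6951 genes (54.0%) were called, 3516 higher and 3435 lower, and 5674 of the 6176 calls were kept, all in the same direction. Counts of lists below are to be read against 24.4% higher and 23.5% lower. Of the tested genes, 219 passed the filter on low values only through the MycKO libraries (they fail it without them) and 107 only through the WT libraries. The direction of such genes is given as a description.

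**Figure D1:**
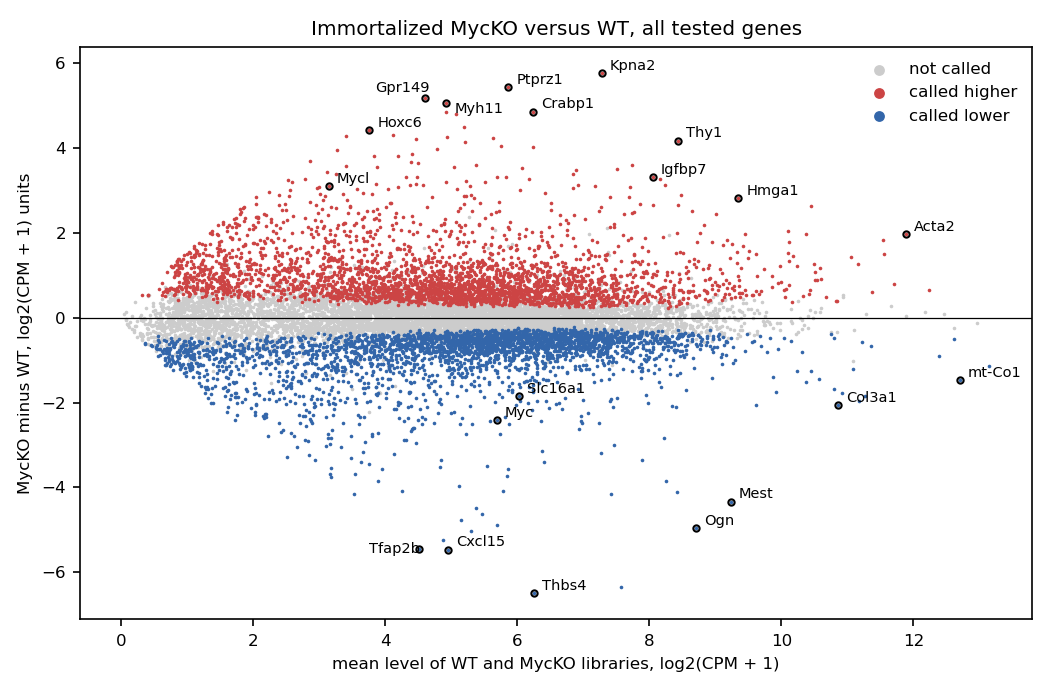
Each point is 1 of 12880 genes, with its mean level in the 6 libraries as log2(CPM + 1) on the horizontal axis and its MycKO minus WT difference, in the same log2 units, on the vertical axis. Red and blue points are called higher and lower, and the named genes reach from -6.49 for Thbs4 to 5.77 for Kpna2.

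Myc RNA itself was at 48.1, 39.9 and 178 CPM in WT libraries 2, 3 and 4 and 17.2, 11 and 9.96 CPM in MycKO libraries 9, 10 and 11. All MycKO libraries were lower than all WT libraries, and WT library 4 held the most Myc RNA. Its difference was -2.41 ± 0.43 (log2 scale, ± SE of the fit here and below, n = 3 per group; limma adjusted p = 0.000817), and -1.75 without WT library 4. The floxed segment does not hold the first exon of Myc, and values count the whole gene. Of the other members of the extended Myc network, 3 rose and 6 fell with 13 tested beside Myc, against 24.4% higher and 23.5% lower over all genes, and without WT library 4, 3 rose and 8 fell. Mycl, a Myc family member that also dimerises with Max, was at 0.234, 0.388 and 2.5 CPM in the WT and 14.8, 15.1 and 14.1 CPM in the MycKO libraries (3.11 ± 0.31, adjusted p = 1.14e-05). Mycn, the third family member, was at 0, 0.0555 and 0 CPM in the WT and 2.1, 1.26 and 1.41 CPM in the MycKO libraries (1.33 ± 0.16) and passed the filter only through the MycKO libraries. Mycl in the MycKO libraries thus lay above every WT library, of which WT library 4 was the highest.

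Max, the shared partner, fell by 0.56 ± 0.10 with 55.3, 48.6 and 58.7 CPM in the WT and 35.3, 35.4 and 38.7 CPM in the MycKO libraries (adjusted p = 0.000944). Among the Max-binding competitors of Myc, Mxi1 fell most, from 23.7, 22.8 and 28.7 CPM to 7.51, 7.63 and 7.37 CPM (-1.61 ± 0.14, adjusted p = 4.84e-06). Mxd4 was at 99, 115 and 60.01 CPM in the WT and 46.4, 45.4 and 42.5 CPM in the MycKO libraries and fell by 0.96 ± 0.19. Mxd1 was at 16.1, 18.5 and 11 CPM in the WT and 9.46, 8.24 and 9.46 CPM in the MycKO libraries and fell by 0.66 ± 0.17. Mga was at 124, 99 and 129 CPM in the WT and 65.3, 84.1 and 81 CPM in the MycKO libraries and fell by 0.60 ± 0.14, and its call was lost after adjustment for base composition and length. Mxd3 was the competitor that rose, at 8.26, 11.7 and 10.6 CPM in the WT and 23.9, 16.6 and 15.6 CPM in the MycKO libraries (0.81 ± 0.20, adjusted p = 0.00533). Mnt, at 54.6, 58.5 and 27.5 CPM in the WT and 27.1, 36.1 and 34.2 CPM in the MycKO libraries, was not called (-0.45, adjusted p = 0.139) but was lower without WT library 4 (-0.79, adjusted p = 0.000836). On the Mlx side, Mlx was at 25.1, 23.5 and 20.5 CPM in the WT and 27.8, 25.1 and 22.4 CPM in the MycKO libraries and its groups overlapped (adjusted p = 0.561). Mlxip, at 60.3, 65.4 and 73.7 CPM in the WT and 44.1, 62 and 54 CPM in the MycKO libraries, was not called (-0.32, adjusted p = 0.0795), and Mlxipl was below the filter. Of the arrestins that MondoA and ChREBP are known to induce, Txnip was at 60.7, 74.3 and 33.8 CPM in the WT and 37.2, 41.4 and 38.4 CPM in the MycKO libraries and was not called (adjusted p = 0.188) but was lower without WT library 4 (-0.77). Arrdc4, at 15.3, 12.3 and 6.51 CPM in the WT and 7.72, 5.71 and 4.78 CPM in the MycKO libraries, fell by 0.76 ± 0.26, a call lost when any of WT libraries 2 and 3 or MycKO libraries 10 and 11 was left out.

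A list of 5 rescue genes was followed, taken from work on other fibroblasts without Myc. Less Plac8, or more of any of the others, is known to undo part of the defect there. Hmga1, a chromatin protein that bends AT-rich DNA, was at 119, 121 and 276 CPM in WT libraries 2, 3 and 4 and 1120, 1173 and 1100 CPM in MycKO libraries 9, 10 and 11. Its groups were far apart and the MycKO libraries lay close together, with a difference of 2.83 ± 0.26 (adjusted p = 6.17e-06). Of the 50-base windows of its transcripts, 25% are also found in the copy Hmga1b, which was at 0.703, 0.555 and 1.46 CPM in WT and 4.19, 3.19 and 2.31 CPM in MycKO. Its relative Hmga2 rose too, from 302, 247 and 622 CPM to 1072, 1045 and 1082 CPM (1.57). Shmt2, the mitochondrial serine hydroxymethyltransferase, was at 147, 141 and 171 CPM in the WT and 108, 119 and 117 CPM in the MycKO libraries and fell by 0.41 ± 0.13, a call lost without WT library 4, MycKO library 9 or MycKO library 11. Shmt1, the cytosolic enzyme, was at 24.1, 28.9 and 27.3 CPM in the WT and 22.9, 23.1 and 19.6 CPM in the MycKO libraries and was not called (-0.28, adjusted p = 0.0715). Myct1 and Plac8 were below the filter. Plac8 was at 0, 0.0555 and 0 CPM in the WT and 1.89, 0.494 and 0.45 CPM in the MycKO libraries, low levels that were not tested. The paper reports Plac8 as lower across the knockout lines.

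**Figure D2:**
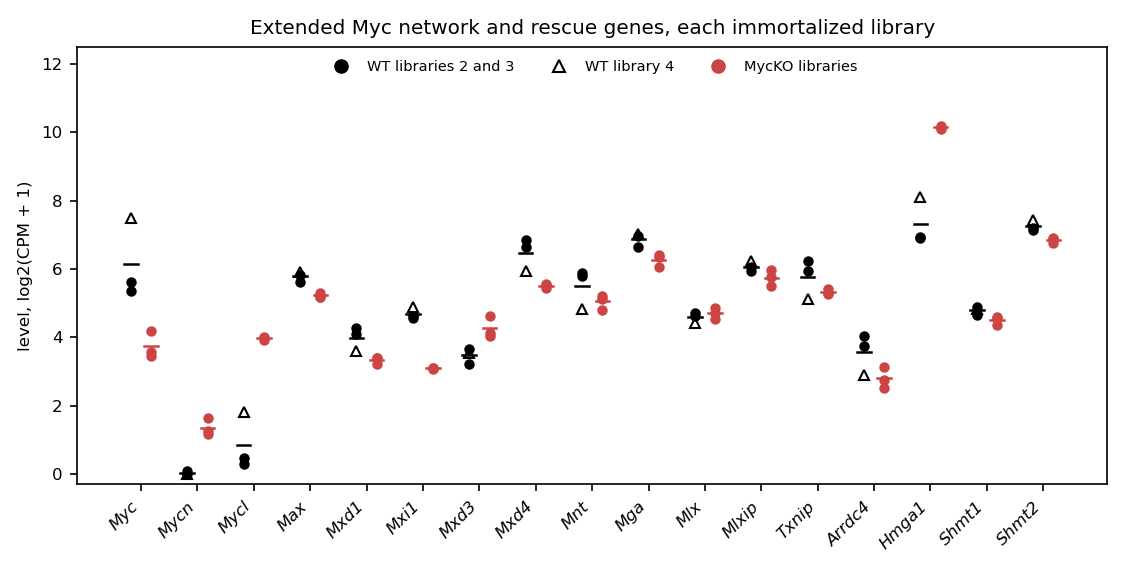
Levels as log2(CPM + 1) of each gene in each immortalized library, with the mean of each group as a bar; WT library 4 is the open triangle. Myc is lower and Mycl, Mycn and Hmga1 are higher in all 3 MycKO libraries, and WT library 4 lies between the groups for Mycl and Hmga1.

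The genes that Myc is known to activate moved in both directions. Of 30 such targets, 12 fell and 5 rose, with a median difference of -0.38, beside 24.4% higher and 23.5% lower of all genes; without WT library 4, 9 fell and 7 rose (median -0.15), and without MycKO library 10 6 fell and 4 rose (3 to 7 higher and 6 to 13 lower with 1 library left out, 3 and 9 with GC content and length corrected). Dkc1, the pseudouridine synthase of small nucleolar RNPs, was at 49.1, 41.3 and 93.4 CPM in the WT and 25.8, 24.3 and 28.5 CPM in the MycKO libraries. The groups did not overlap, and the difference was -1.11 ± 0.23 (adjusted p = 0.00208). Gnl3, the nucleolar GTPase nucleostemin, was at 101, 83.8 and 155 CPM in the WT and 59.4, 50.4 and 47.1 CPM in the MycKO libraries (-1.06 ± 0.18, adjusted p = 0.000606), again without overlap. In the other direction, Ldha, lactate dehydrogenase A, was at 527, 552 and 788 CPM in the WT and 1003, 825 and 854 CPM in the MycKO libraries (0.54 ± 0.15, adjusted p = 0.0127), a call lost without WT library 2. Nme2, a nucleoside diphosphate kinase, rose by 0.90, and its MycKO library 9 stood at more than its other MycKO libraries (628, 286 and 289 CPM).

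In the nucleolus, 17 of 40 genes of ribosome biogenesis and RNA polymerase I fell and 3 rose (median -0.36), beside 24.4% higher and 23.5% lower of all genes. Without WT library 4 the counts were 13 lower and 7 higher with a median of -0.10, and without MycKO library 9 they were 13 and 1 (1 to 7 higher and 13 to 19 lower with 1 library left out, 1 and 16 with GC content and length corrected). Ncl, nucleolin, was at 604, 557 and 993 CPM in the WT and 310.1, 390.2 and 409 CPM in the MycKO libraries (-0.92 ± 0.19, adjusted p = 0.00195). WT library 4 was the highest for it, and the MycKO libraries lay below all WT libraries. Wdr43 (-1.02), Tsr1 (-0.91) and Polr1a, the largest subunit of RNA polymerase I (-0.77), fell likewise, while Fbl, the rRNA methyltransferase fibrillarin, rose by 0.48. Of 79 cytosolic ribosomal protein genes, 9 fell and 7 rose (median -0.20), both shares below those of all genes. Without MycKO library 9, 39 fell and 2 rose (median -0.44), without WT library 4 4 fell and 9 rose, and with GC content and length corrected 23 fell and 5 rose. Translation factors counted 14 lower and 3 higher of 41, and 9 lower and 8 higher without WT library 4 (2 to 8 higher and 8 to 16 lower with 1 library left out).

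Enzymes that charge tRNAs fell in 10 of 20 cases and rose in 0 (median -0.32), and in 11 and 3 without WT library 4 (0 to 3 higher and 9 to 11 lower with 1 library left out, 2 and 12 with GC content and length corrected). Eprs, which charges glutamate and proline, was at 418, 376 and 316 CPM in the WT and 144, 195 and 178 CPM in the MycKO libraries. No MycKO library reached a WT library, and the difference was -1.10 ± 0.13 (adjusted p = 3.47e-05). Lars, for leucine, fell by 1.07 ± 0.12. Serine and one-carbon enzymes fell in 8 of 12 cases and rose in 0 (median -0.47; 6 lower without WT library 4). The largest fall was that of Aldh1l2, the mitochondrial formyltetrahydrofolate dehydrogenase, at 169.8, 148 and 96.7 CPM in the WT and 27.4, 37.7 and 36.4 CPM in the MycKO libraries (-1.97 ± 0.18, adjusted p = 6.25e-06). Psat1, phosphoserine aminotransferase, was at 467, 405 and 465 CPM in the WT and 284, 242 and 247 CPM in the MycKO libraries (-0.79 ± 0.10, adjusted p = 9.25e-05). Both groups of values were apart for both enzymes. Slc7a11, the cystine importer, and Slc7a5, the large neutral amino acid transporter, belong to the ATF4 stress response and fell by 2.61 ± 0.20 and 1.34 ± 0.16, whereas Atf4 itself rose by 0.50, a call lost after adjustment for base composition and length.

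Promoter sequence was examined for the E-box, which reads the same on both strands. At least 1 CACGTG was sought within the RefSeq windows from 250 bases before to 50 bases after a start site (GRCm38.p6). It was found for 12.6% of 2387 genes called lower, 10.5% of 2448 called higher and 12.0% of 5235 not called. The share over all 10070 of these tested genes was 11.7%. Counted by window and not by gene, 7.15% of all 32851 windows hold it. The stretches below are from 2 genes that rose and 2 that fell, shown because promoters with the motif belonged to genes of both directions; CACGTG is in capitals and all lie before the start site on the plus strand.
Cdk4, higher, chr10:127063343-127063534: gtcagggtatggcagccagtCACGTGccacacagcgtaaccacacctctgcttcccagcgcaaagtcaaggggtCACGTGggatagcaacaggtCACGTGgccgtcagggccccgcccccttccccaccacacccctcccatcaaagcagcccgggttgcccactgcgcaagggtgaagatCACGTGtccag
Ldha, higher, chr7:46845639-46845781: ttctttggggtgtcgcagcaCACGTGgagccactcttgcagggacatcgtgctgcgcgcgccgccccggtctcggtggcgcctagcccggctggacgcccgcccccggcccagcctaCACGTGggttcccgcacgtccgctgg
Iars, lower, chr13:49682041-49682086: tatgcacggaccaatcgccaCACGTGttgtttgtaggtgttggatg
Slc16a1, lower, chr3:104638444-104638489: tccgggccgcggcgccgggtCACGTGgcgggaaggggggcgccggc
Cdk4, the cyclin D-dependent kinase with 4 E-boxes in this stretch, rose by 0.41 (adjusted p = 0.00585), and the isoleucyl-tRNA synthetase Iars with 1 fell by 0.84 ± 0.13 (adjusted p = 0.000258). A match is a description of the letters and not evidence of binding.

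Glucose metabolism had calls in both directions. Of 22 genes for glucose uptake and glycolysis, 12 rose and 3 fell (median 0.34), beside 24.4% higher and 23.5% lower of all genes; without WT library 4 the counts were 12 and 5, and without WT library 2 they were 5 and 2. The sums of the list were 5740, 5923 and 6841 CPM in WT and 8640, 8442 and 8554 CPM in MycKO libraries. They were 7003, 8009 and 7975 CPM in the immortalized MlxKO libraries, where Myc was not excised, and 6798, 7224 and 7245 CPM in DKO. Those that rose included Gapdh (0.82), the phosphofructokinases Pfkl (0.99) and Pfkp (1.06) and the glucose transporter Slc2a1 (0.38). The lactate transporters moved apart. Slc16a3 (MCT4), which mainly exports lactate, was at 6.03, 6.49 and 11.9 CPM in the WT and 34.2, 34.1 and 35.9 CPM in the MycKO libraries (2.02 ± 0.24, adjusted p = 3.63e-05). Slc16a1 (MCT1), the transporter with the E-box shown above, was at 105, 83.5 and 114 CPM in the WT and 28.9, 25.4 and 27.3 CPM in the MycKO libraries (-1.84 ± 0.13, adjusted p = 5.78e-07). Neither gene's groups overlapped. Pdk1, a kinase that restrains pyruvate dehydrogenase, fell by 0.70 ± 0.13. Among the TCA cycle and glutamine genes, 8 of 29 fell and 2 rose (1 to 3 higher and 8 to 10 lower with 1 library left out), the falls including the glutamine transporter Slc1a5 at 104, 96.8 and 76.5 CPM in the WT and 24.2, 27.4 and 28.6 CPM in the MycKO libraries (-1.75 ± 0.14, adjusted p = 1.89e-06).

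Transcripts of the mitochondrial genome fell as a group: all 13 protein-coding genes were lower, with no overlap between the groups for any of them and a median difference of -1.62, where 25.1% of all genes had every MycKO library below every WT library. One of them, mt-Atp8, at 1.17, 0.444 and 1.64 CPM in the WT and 0.409, 0.0549 and 0.0563 CPM in the MycKO libraries, passed the filter only through the WT libraries, so its direction is a description. Their sums were 34230, 30480 and 31920 CPM in the WT and 8616, 11480 and 12630 CPM in the MycKO libraries. The immortalized MlxKO libraries, in which Myc was not excised, summed to 18220, 12690 and 13840 CPM, also below every WT library. The DKO libraries, which lack Myc, summed to 25250, 25500 and 17970 CPM. Low sums were thus not particular to MycKO. mt-Co1, subunit 1 of cytochrome oxidase, was at 10980, 10110 and 8220 CPM in the WT and 2672, 3886 and 4142 CPM in the MycKO libraries (-1.47 ± 0.24, adjusted p = 0.000371). mt-Atp6, of the ATP synthase, was at 3884, 3141 and 4075 CPM in the WT and 737, 985 and 1129 CPM in the MycKO libraries (-1.97 ± 0.22, adjusted p = 2.26e-05). MycKO library 9 was the lowest for both genes, and without it all 13 were still called lower (median -1.39). Without WT library 4, 12 of 13 were, the exception being mt-Atp8, and with GC content and length corrected 10 were. Nuclear copies share their sequence with these genes, with 99.5% of the 50-base windows of mt-Atp6 and 51.1% of those of mt-Co1 found elsewhere, so reads could be split between them. The libraries were made from polyadenylated RNA, and its share of mitochondrial transcripts is what was measured. Of nuclear genes for respiratory chain subunits, 13 of 39 were higher and 2 lower (median 0.26), beside 24.4% higher and 23.5% lower of all genes. That count rested in part on MycKO library 9: Cox5b was at 86.9, 29.1 and 29.8 CPM in the MycKO libraries and 13.6, 21.6 and 10.4 CPM in the WT libraries, and without that library 8 were higher and 4 lower (median 0.082), while without WT library 2 they were 6 and 2 (6 to 18 higher and 2 to 4 lower with 1 library left out, 14 and 4 with GC content and length corrected).

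The contractile genes of smooth muscle and myofibroblasts rose without exception among the 13 tested, with a median difference of 1.97 and no overlap between the groups in any of them, where 26.0% of all genes had every MycKO library above every WT library. The list summed to 2965, 3498 and 5415 CPM in the WT libraries and 14150, 13360 and 14000 CPM in the MycKO libraries. Acta2, smooth muscle actin, was at 1181, 1329 and 2237 CPM in the WT and 5811, 5862 and 6228 CPM in the MycKO libraries (1.97 ± 0.21, adjusted p = 1.58e-05). Myh11, the smooth muscle myosin heavy chain, was at 1.11, 0.888 and 0.304 CPM in the WT and 46.1, 64.6 and 63.5 CPM in the MycKO libraries (5.07 ± 0.22, adjusted p = 1.5e-08). Actg2, the enteric smooth muscle actin, was at 27.8, 34.7 and 80.7 CPM in the WT and 394, 344 and 372 CPM in the MycKO libraries (3.08 ± 0.29, adjusted p = 6.12e-06). WT library 4 was the highest of the WT libraries for Acta2 and Actg2 and the lowest for Myh11. Tagln (transgelin, 2.65), Myl9 (2.66), Cnn1 (calponin, 1.88) and Srf, the factor that drives many of these genes (0.89), rose as well, and Myocd, its coactivator, was below the filter. Without WT library 4 all 13 were called higher, with a median of 2.04. The skeletal muscle markers had 1 tested member, Acta1, at 22.1, 20.5 and 13.2 CPM in the WT and 191, 226 and 231 CPM in the MycKO libraries (3.50 ± 0.16), while the muscle-determining factors Myod1, Myog and Myf5 were below the filter and 5 of the 7 markers had no read in the 6 libraries.

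Matrix genes changed in both directions. Of 23 collagen chains, 8 rose and 7 fell, or 8 and 10 without WT library 4. The list, led by Col1a1, summed to 30650, 31100 and 22880 CPM in WT and 15150, 21800 and 20280 CPM in MycKO. Its sums were 16780, 21810 and 20340 CPM in the immortalized MlxKO libraries, where Myc was not excised, and 27880, 24350 and 32750 CPM in DKO. The fibrillar collagens Col1a1 and Col3a1 were lower, Col1a1 at 14530, 15400 and 7714 CPM in the WT and 4291, 6356 and 5925 CPM in the MycKO libraries (-1.14 ± 0.29, adjusted p = 0.0075). Col3a1 was at 2780, 2745 and 3464 CPM in the WT and 575, 819 and 767 CPM in the MycKO libraries (-2.06 ± 0.16, adjusted p = 1.6e-06). Both had lower values in every MycKO library than in any WT library, whereas the basement membrane chains Col4a1 (1.18), Col4a2 (1.2), Col15a1 (2.42) and Col18a1 (1.83) rose, of which Col15a1 passed the filter only through the MycKO libraries. Of the matricellular and matrix protein list, 6 of 27 rose and 9 fell, or 7 and 12 without WT library 4. Ogn (osteoglycin), a small leucine-rich proteoglycan, was at 1050, 811 and 571 CPM in the WT and 21.5, 24.5 and 27 CPM in the MycKO libraries (-4.96 ± 0.24, adjusted p = 4.01e-08), and Fmod (-3.36), Aspn (-3.18) and Lum (-2.27) of that list fell too. Eln, elastin, was at 70.7, 118 and 16.1 CPM in the WT and 1.02, 0.933 and 0.844 CPM in the MycKO libraries (-4.76 ± 0.50, adjusted p = 1.57e-05). Tnc, tenascin C, rose from 253, 304 and 901 CPM to 1383, 1966 and 1810 CPM (2.05 ± 0.37), and the collagen cross-linking enzyme Loxl3 from 59.6, 72.2 and 50.6 CPM to 494, 568 and 554 CPM (3.14 ± 0.13). All MycKO values of Tnc and Loxl3 were above all WT values.

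The fibroblast markers summed to 33640, 33770 and 25630 CPM in WT and 18730, 24480 and 23120 CPM in MycKO, with Col1a1 as the most abundant; 3 of 10 were higher and 2 lower (3 higher and 2 to 3 lower with 1 library left out). Thy1, a surface protein of many fibroblasts, was at 14.9, 21.1 and 124 CPM in the WT and 639.6, 633 and 635 CPM in the MycKO libraries (4.17 ± 0.53, adjusted p = 6.96e-05). WT library 4 lay between the groups for Thy1, which DESeq2 did not call. Macrophage, endothelial and epithelial markers were at low levels. The 14 macrophage markers summed to at most 8.83 CPM in any of the 6 libraries, led by Cd14, and 5 of them had no read. The 8 endothelial markers summed to 15.6, 17.2 and 41.9 CPM in WT and 14.8, 18.5 and 19.5 CPM in MycKO, with 3 at 0. The most abundant of these was Erg, a transcription factor, which fell from 11.5, 12.2 and 38.8 CPM to 0.46, 0.439 and 0.45 CPM (-3.69 ± 0.34, adjusted p = 6.01e-06). Of the 3 endothelial markers tested, 1 was higher and 1 was lower (1 and 1 with any 1 library left out). The 9 epithelial markers summed to 19.03, 21.97 and 12.8 CPM in WT and 20.1, 20.8 and 18.3 CPM in MycKO, led by Krt19, with 2 at 0. Cartilage and bone markers fell in 6 of 7 tested cases and rose in none (0 higher and 4 to 6 lower with 1 library left out), with sums of 250.8, 288.9 and 285.0 CPM in WT and 80.9, 108.4 and 102.3 CPM in MycKO. Col10a1, the collagen of hypertrophic cartilage, was at 64.2, 102 and 144 CPM in the WT and 4.5, 5.22 and 4.95 CPM in the MycKO libraries (-4.07 ± 0.23, adjusted p = 9.72e-08), and Sox9, the cartilage regulator, fell by 1.00 ± 0.15. Adipocyte markers counted 4 lower and 1 higher of 5 tested (1 higher and 3 to 4 lower with 1 library left out), with sums of 92.4, 139.6 and 53.01 CPM in WT and 35.7, 43.8 and 40.3 CPM in MycKO, led by Plin4, and 5 of the 10 markers at 0. Of these, Pparg, the adipogenic regulator, fell by 1.34 ± 0.25 and the lipase Lpl rose by 2.24, and Adipoq was below the filter. Neural markers summed to 206.3, 196.8 and 111.3 CPM in WT and 106.8, 106.6 and 116.7 CPM in MycKO, led by Map2, with 1 of 7 at 0. The part of these cell types in the results was not tested. A smaller share of cells of a type and less RNA per cell cannot be told apart in such bulk libraries.

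**Figure D3:**
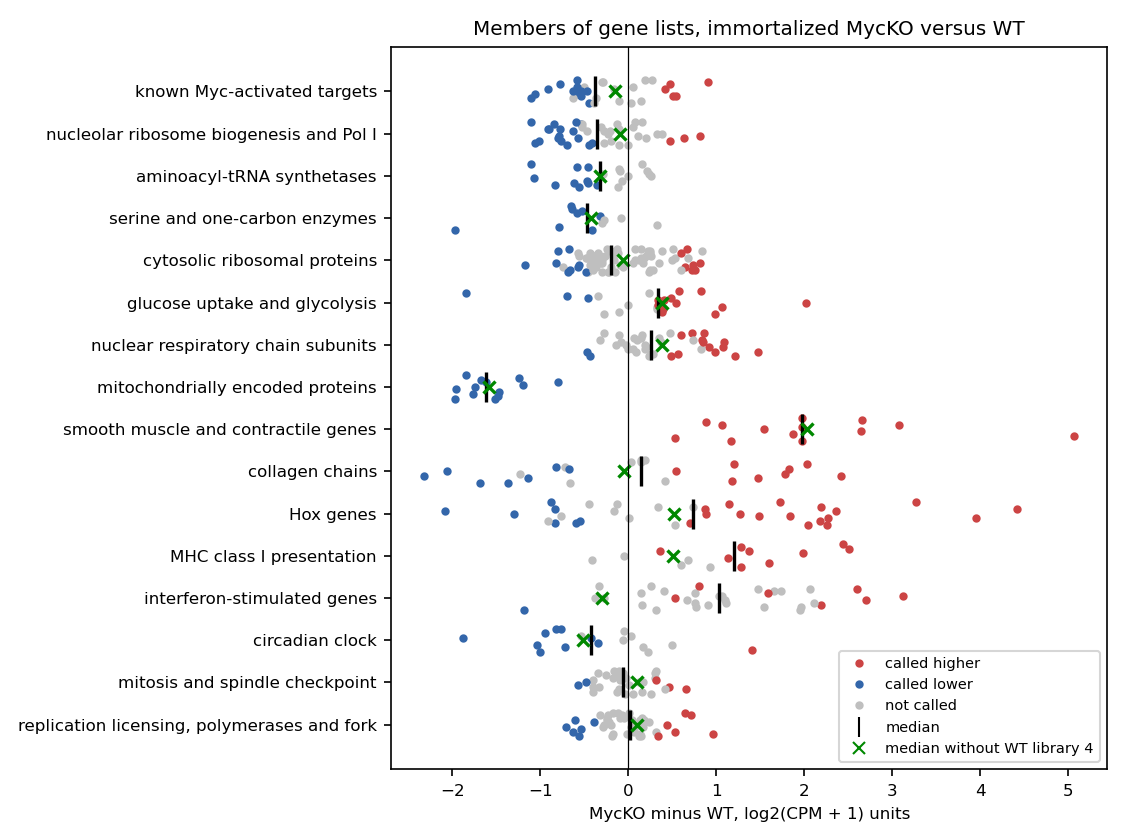
Each point is a tested member of a list with its MycKO minus WT difference in log2(CPM + 1) units; black bars are the medians and green crosses the medians without WT library 4. All contractile genes lie above 0 and all mitochondrially encoded genes below it, and the cross of the interferon-stimulated genes lies on the other side of 0 from the bar.

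Hox genes, which record the position along the body axis from which an embryonic cell came, separated by cluster. Of 33 tested, 17 rose and 7 fell (edgeR: 14 and 9), beside 24.4% higher and 23.5% lower of all genes, and 17 rose and 9 fell without WT library 4 (14 to 17 higher and 4 to 9 lower with 1 library left out). All 8 tested genes of the Hoxb cluster and 7 of 9 of the Hoxc cluster were higher, or 8 and 5 by edgeR, and 1 Hoxc gene was lower, Hoxc12 (-0.83, adjusted p = 0.0278). The Hoxc counts were 8 higher and 0 lower without WT library 4, and Hoxc12 was not called (adjusted p = 0.0733). Of the 33 genes, 6 passed the filter on low values only through the MycKO libraries, Hoxc4, Hoxc5, Hoxc6, Hoxc8, Hoxc9 and Hoxd4, so these counts are a description. Of the Hoxa cluster, 1 of 9 was higher and 4 were lower, and of the Hoxd cluster, 1 of 7 was higher, Hoxd4, and 2 were lower, or 0 and 4 both without WT library 4 and by edgeR. Hoxc6 was at 0.176, 0.333 and 0.122 CPM in the WT and 26.6, 22.9 and 25.3 CPM in the MycKO libraries, close to 0 in every WT library (4.42 ± 0.16). Hoxc8 was at 0.234, 0 and 0.304 CPM in the WT and 16.7, 17.6 and 17.3 CPM in the MycKO libraries (3.96 ± 0.15). The immortalized MlxKO libraries held 0.871, 0.601 and 1.12 CPM of Hoxc6 and the immortalized DKO libraries 0.228, 0.226 and 0.0552 CPM, so MycKO was the 1 immortalized group with more than 2 CPM. In the primary MEFs, Hoxc6 was at 20.5, 20.6 and 18.9 CPM in WT and 34.5, 26.9 and 31.3 CPM in MycKO libraries, and levels are set side by side only, since those tables were scaled separately. At the other end, Hoxd13, the most 5′ gene of its cluster and a mark of distal limb, was at 469, 461 and 226 CPM in the WT and 129.8, 153 and 163 CPM in the MycKO libraries (-1.30 ± 0.23, adjusted p = 0.000715). Hoxd10 was at 44.7, 41.4 and 14.5 CPM in the WT and 5.27, 6.54 and 7.26 CPM in the MycKO libraries (-2.09 ± 0.31, adjusted p = 0.000236). For both, WT library 4 was the WT library nearest to the MycKO values, without overlap. Primary libraries had Hoxd13 at 44.4, 46.2 and 44.9 CPM in WT and 14.2, 15.5 and 10.6 CPM in MycKO.

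**Figure D4:**
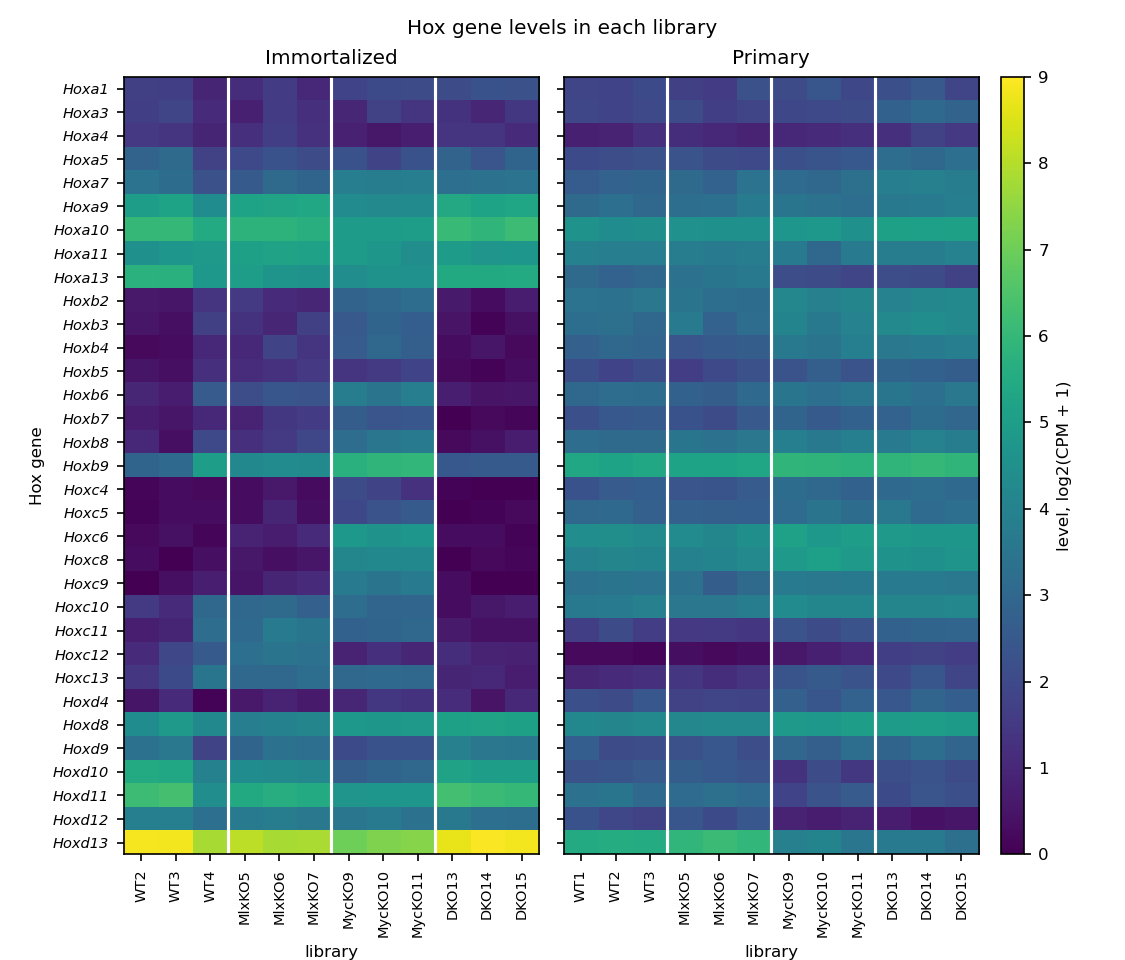
Levels of 33 Hox genes as log2(CPM + 1), by colour, in the 12 immortalized (left) and 12 primary (right) libraries, with white lines between genotypes. Among immortalized groups the genes from Hoxc4 to Hoxc9 are highest in the MycKO libraries, and Hoxd13 is lowest there.

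Genes of the interferon response depended on WT library 4, and those of antigen presentation did so in their median more than in their counts. Of 14 genes of the MHC class I pathway, 9 rose and 0 fell, and without WT library 4 the counts were 9 and 1, with the median moving from 1.21 to 0.51; 5 rose without MycKO library 9, 4 without MycKO library 10, 4 without MycKO library 11 and 5 by edgeR. H2-D1, a classical class I heavy chain, was at 183, 236 and 90.3 CPM in the WT and 888, 865 and 835 CPM in the MycKO libraries (2.45 ± 0.26, adjusted p = 1.55e-05). B2m, the shared light chain, was at 1055, 955 and 566 CPM in the WT and 2191, 1828 and 2025 CPM in the MycKO libraries (1.28 ± 0.24, adjusted p = 0.00102). Psmb8, an immunoproteasome subunit, was at 15.7, 18.1 and 3.59 CPM in the WT and 81.7, 56 and 57 CPM in the MycKO libraries (2.51 ± 0.40, adjusted p = 0.000347). All 3 genes were above every WT library in every MycKO library, and they were lowest in WT library 4. The 33 interferon-stimulated genes summed to 3523, 3870 and 380 CPM in the WT and 3633, 3279 and 3350 CPM in the MycKO libraries. With all libraries, 7 rose and 1 fell (median 1.03); without WT library 4, 14 rose and 16 fell (median -0.30), and without WT library 2, 14 rose and 1 fell. Without any 1 of MycKO libraries 9, 10 and 11, 4 rose and 1 fell, the counts that edgeR also gave (median 0.25). The direction of the list therefore turned with 1 library. Irf7, the master regulator of interferon production, was at 61.5, 92.9 and 0.73 CPM in the WT and 202, 185 and 178 CPM in the MycKO libraries. Its call (adjusted p = 0.0272) was lost when any 1 MycKO library was left out, and by edgeR and DESeq2. Ifit2, an RNA-binding antiviral protein, was the gene that fell, at 120.2, 114 and 57.1 CPM in the WT and 42.7, 38.5 and 39.1 CPM in the MycKO libraries (-1.18 ± 0.22, adjusted p = 0.00105).

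**Figure D5:**
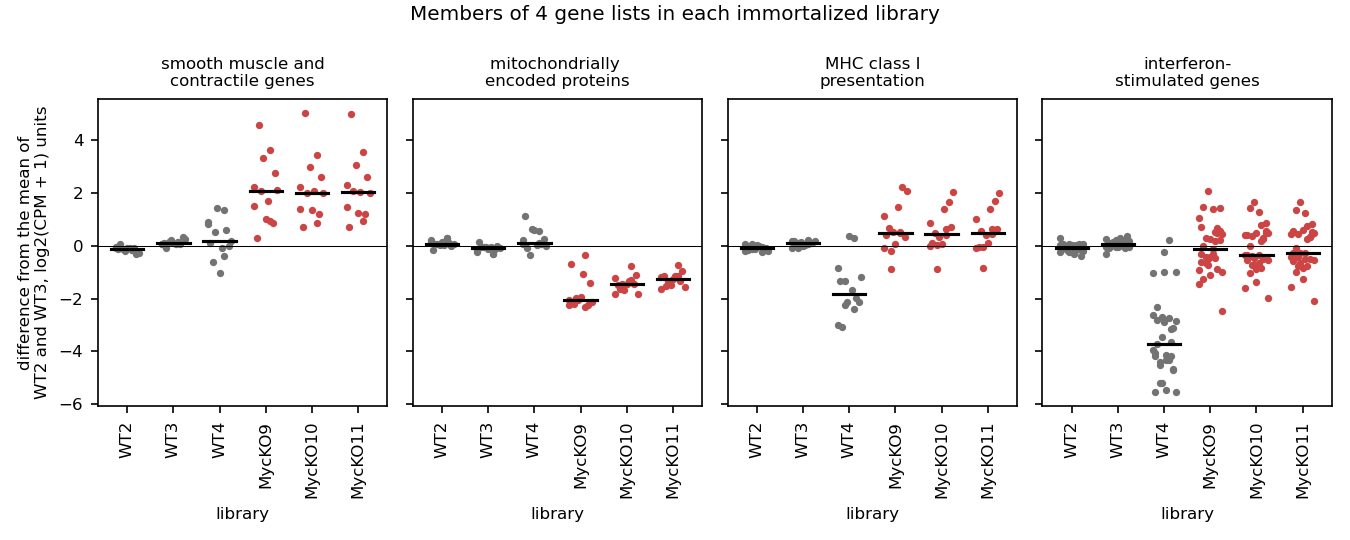
Each point is a member of 1 of 4 lists in 1 library, as the difference of its log2(CPM + 1) from the mean of WT libraries 2 and 3; bars are medians. Contractile and mitochondrial medians of WT library 4 lie at 0.19 and 0.11, near the other WT libraries, whereas those of MHC class I and interferon-stimulated genes lie at -1.82 and -3.73.

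Few genes of replication and mitosis were called. Replication genes counted 6 higher and 6 lower of 46 (5 to 8 higher and 4 to 7 lower with 1 library left out), and genes of mitosis 3 higher and 2 lower of 31, or 10 and 0 without WT library 4 and 3 and 7 without WT library 3 (2 to 10 higher and 0 to 7 lower with 1 library left out, 3 and 1 with GC content and length corrected); with all libraries these shares are below those of all genes. The cyclins, CDKs and E2F factors of G1 and S rose in 9 of 19 cases and fell in 3 (8 to 10 higher and 2 to 3 lower with 1 library left out). E2f1, an activator of S-phase genes, was at 48.5, 55 and 50.9 CPM in the WT and 100, 119.7 and 118 CPM in the MycKO libraries (1.11 ± 0.10, adjusted p = 5.79e-06), without overlap. Ccnd1, cyclin D1, was at 302, 318 and 56.3 CPM in the WT and 503, 509 and 503 CPM in the MycKO libraries (1.52 ± 0.47, adjusted p = 0.0191), and without WT library 4, which was far lower than the rest, the difference was 0.70. Among CDK inhibitors and Rb relatives, 4 of 11 rose and 4 fell (3 to 5 higher and 2 to 4 lower with 1 library left out). Cdkn1a (p21) was at 143, 131 and 59.5 CPM in the WT and 204, 186 and 192 CPM in the MycKO libraries (0.89 ± 0.24, adjusted p = 0.01), and Cdkn1b (p27) at 168, 161 and 139 CPM in the WT and 118, 91.3 and 97.6 CPM in the MycKO libraries (-0.60 ± 0.13, adjusted p = 0.00288). The size of the Cdkn1a difference rested in part on WT library 4, which held the least of it. Cdkn2d (p19-INK4D) rose by 1.30. Cdkn2a rose by 0.37, but fell by 0.22 after the GC and length correction. Of 12 genes that Myc is known to repress, 5 rose and 3 fell (5 to 6 higher and 2 to 4 lower with 1 library left out), Gadd45g at 58.4, 60.5 and 80.4 CPM in the WT and 212, 191 and 201 CPM in the MycKO libraries (1.6) and Gas1, a growth-arrest protein, at 480.2, 575 and 519 CPM in the WT and 106, 142 and 126 CPM in the MycKO libraries (-2.07) among them. The p53 list had 8 higher and 5 lower of 25, or 10 and 7 without WT library 4, with Phlda3 (1.45) and Pmaip1 (1.21) up and Btg2 (-2.02) and Tnfrsf10b (-0.96) down.

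DNA repair genes are given as counts beside the 24.4% higher and 23.5% lower of all tested genes. The counts of higher and lower genes were 2 and 2 of 16 for homologous recombination, 1 and 3 of 11 for end joining, and 0 and 3 of 7 for mismatch repair. They were 4 and 3 of 17 for base excision, 2 and 5 of 15 for nucleotide excision, 3 and 3 of 13 for the Fanconi pathway, 2 and 7 of 19 for damage signalling and 3 and 2 of 9 for shelterin and telomerase. When each library was left out in turn the counts were 2 higher and 1 to 2 lower for homologous recombination, 1 higher and 2 to 4 lower for end joining, 0 higher and 2 to 4 lower for mismatch repair and 4 to 5 higher and 3 lower for base excision. For the others they were 2 to 3 higher and 2 to 5 lower for nucleotide excision, 2 to 3 higher and 1 to 3 lower for the Fanconi pathway, 2 to 3 higher and 6 to 8 lower for damage signalling and 1 to 3 higher and 1 to 2 lower for shelterin and telomerase. The lowest counts for shelterin and telomerase were those without MycKO library 10. With GC content and length corrected, the counts were 3 and 1 for homologous recombination, 0 and 1 for mismatch repair and 2 and 3 for nucleotide excision. Xrcc5 (Ku80), which holds broken ends, was at 49.95, 41.7 and 37.1 CPM in the WT and 15.4, 17.1 and 21 CPM in the MycKO libraries (-1.22 ± 0.15, adjusted p = 5.53e-05). Brca2, a homologous recombination protein, was at 46.7, 39.5 and 50.6 CPM in the WT and 21.3, 24.7 and 25.1 CPM in the MycKO libraries (-0.91 ± 0.13, adjusted p = 0.000169). Atm, the break-sensing kinase, was at 99.4, 75.3 and 96.4 CPM in the WT and 40.5, 55 and 49.1 CPM in the MycKO libraries (-0.89 ± 0.15, adjusted p = 0.000473). All 3 were lower in every MycKO library than in every WT library. Xrcc1, the scaffold of single-strand break repair, rose by 1.00, and Ercc1, of the 5′ incision nuclease, by 1.33, from 12.3, 12.48 and 17.2 CPM to 40.1, 33.6 and 35.1 CPM.

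Among the 12 largest falls with separate groups, Thbs4, thrombospondin 4, was at 130.1, 182 and 138 CPM in the WT and 0.818, 0.494 and 0.675 CPM in the MycKO libraries (-6.49 ± 0.15, adjusted p = 6.9e-11). Tfap2b, a transcription factor of neural crest and limb, had no read in any MycKO library and 51.1, 49.5 and 30.3 CPM in the WT libraries, which makes it at least 269-fold lower against a floor of 3 reads per library. Sall1, a zinc-finger factor of limb and kidney development, likewise had no read in MycKO and 31.6, 26.2 and 5.42 CPM in WT, at least 130-fold lower. The others were Cxcl15, Hapln1, Cdsn, Ogn, Omd, Eln, Trabd2b, Enpp2 and Mest, from -5.47 to -4.34. Mest in WT library 4 was nearer to the MycKO values of 35.4, 34.1 and 30.8 CPM than WT libraries 2 and 3 were. Among the 12 largest rises were Gpr149, an orphan receptor, at 0, 0 and 1.16 CPM in the WT and 40.5, 46.6 and 50.9 CPM in the MycKO libraries (5.18 ± 0.26), and Foxs1, a forkhead factor, at 0.117, 0 and 0.487 CPM in the WT and 25.4, 22.7 and 26 CPM in the MycKO libraries (4.44 ± 0.19). Syt13, a synaptotagmin, was at 0.0586, 0 and 0 CPM in the WT and 20.2, 17.1 and 19.9 CPM in the MycKO libraries (4.30 ± 0.14). These 3 were near 0 in all WT libraries and, like Ptprz1 and Hoxc6 below, passed the filter only through the MycKO libraries. Ptprz1, Crabp1, Ankrd1 and Tmem200a were also above every WT library in every MycKO library, but WT library 4 held more of them than WT libraries 2 and 3; Crabp1, a retinoic acid-binding protein, was at 0.937, 0.555 and 32.7 CPM in the WT and 185, 119.5 and 109.7 CPM in the MycKO libraries. Stmn2, Elfn1, Myh11, Hoxc6 and Kpna2 complete the 12.

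Kpna2, an importin that carries proteins into the nucleus, had the largest rise, 5.77 ± 0.18, from 5.04, 4.83 and 4.02 CPM to 305, 300.2 and 311 CPM. Gm10184, which was singled out after its values were seen, is a copy of it on chromosome 17, and went from 342, 283 and 496 CPM to 6.44, 1.15 and 4.67 CPM. Of the 50-base windows of Gm10184 transcripts, 94.1% are also found in Kpna2 transcripts, so the counting could move reads between them. The sum of both was 347.0, 288.2 and 499.6 CPM in WT and 311.7, 301.3 and 315.7 CPM in MycKO, a difference of -0.25, so Kpna2 is reported as uncertain. In the primary MEFs, Kpna2 was likewise at 1.92, 2.23 and 2.63 CPM in WT and 155, 205 and 157 CPM in MycKO, and Gm10184 at 242, 230.1 and 263 CPM and 0.832, 0.458 and 2.04 CPM. In the immortalized DKO libraries, which also lack Myc, Kpna2 was at 3.41, 3.28 and 5.3 CPM.

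Loss of Myc was also compared in cells that lack Mlx, by DKO against MlxKO among the immortalized libraries, which share no library with the comparison above. There 3879 of 12880 genes (30.1%) were called, 16.3% of all tested being higher and 13.9% lower. The number called was 2352 without MlxKO library 6 and 6011 with only these groups fitted. Of the 3879, 2105 were called in both comparisons, which is 34.1% of the MycKO and 54.3% of the DKO calls. Over all tested genes, 30.1% were called in DKO against MlxKO and 48% in MycKO against WT. Of the genes called in both, 736 had the same direction and 1369 the opposite direction. Without WT library 4 these counts were 763 and 1608. The nucleolar list had 25 of 40 genes lower and 0 higher in DKO against MlxKO (median -0.63). Contractile genes had 8 of 13 higher and 0 lower. Mitochondrially encoded genes had 6 of 13 higher and none lower, and the glycolysis list had 1 higher and 6 lower. Of the Hoxb cluster, 7 of 8 genes were lower. The interaction term, which asks whether the effect of Myc loss differs with Mlx, was called for 6108 genes (47.4%). DKO and MlxKO were separate cultures that also differed in sex-linked genes, of which 1 was higher and 4 lower of 5. The median of the tested chromosome Y genes was -3.462 in DKO against MlxKO. The sex-linked list, led by Xist, summed to 1158, 793.2 and 1135 CPM in DKO and 373.5, 335.9 and 326.6 CPM in MlxKO. Mlx status and the culture therefore cannot be told apart in these comparisons.

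In the primary MEFs, MycKO against WT called 5541 of 13101 genes (42.3%), 20.4% of all tested being higher and 21.9% lower. Of 12402 genes tested in both tables, 5966 were called here and 5130 there, and 2613 in both, which is 43.8% and 50.9% of the lists. Over all 12402 genes, 41.4% were called there and 48.1% here, so the overlap was near those shares. Of the genes called in both, 1984 had the same direction and 629 the opposite, and without WT library 4 these counts were 1972 and 973. Contractile genes were higher in 12 of 14 cases there (median 0.69). The nucleolar list was lower in 37 of 40 cases, Myc-activated targets in 25 of 30 and glycolysis in 14 of 22, with 1 higher. Mitochondrially encoded genes were lower in 1 of 13 cases, and interferon-stimulated genes in 27 of 32. All 14 macrophage markers were lower there, with sums of 718, 570.8 and 366.2 CPM in WT and 95.2, 62.5 and 71.1 CPM in MycKO, led by Lyz2, and their part in the primary results was not tested. Myc was at 100.1, 89.8 and 91.8 CPM in primary WT and 25.8, 26.8 and 26.8 CPM in primary MycKO libraries, and Hmga1 at 405, 408 and 294 CPM and 347, 251 and 364 CPM. Differences between the tables were not tested.

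Chromosomes were examined because immortalized cells can gain or lose them. The median difference of the tested genes of an autosome ran from -0.15 on chromosomes 3 and 13 to 0.22 on chromosome 7, where a step from 2 to 3 copies with proportional expression would give 0.585 and one from 4 to 5 copies 0.322. Copy number was not measured. In 132 windows of 20 megabases with at least 30 genes the medians ran from -0.496 to 0.359. Chromosome X stood at -0.22 with 425 genes, and the 15 mitochondrial genes, 2 of them not protein-coding, at -1.68. Chromosome 7 was at 0.21, 0.23 and 0.23 in MycKO libraries 9, 10 and 11 against the WT mean. Within the WT group, library 4 was above the other WT libraries by 0.24 on chromosome 5 and 0.15 on chromosome 9. Against them it stood at -0.14 on chromosome 7 and at 3.185 on chromosome Y, which had 6 tested genes.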

How the data were processed

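RNA was isolated from triplicate sets per group, and polyadenylated, strand-specific libraries (NEBNext Ultra Directional) were sequenced. The authors mapped reads with CLC Genomics Workbench to GRCm39 (mm39) and deposited tables named CPM, with the 12 libraries of the immortalized cells in a table of their own. The strand setting and the scaling are not given in the sources used here. The deposited signal of every library was a whole multiple of 1 read in 100% of values within a tolerance of 0.01, with sums of 992479 to 1077213 in the 6 libraries compared, so the values are not plain CPM as the test plan assumed, the planned test on the log2 scale was kept, reads were recovered and count tests were run as alternatives. A value of 3 reads, the floor for a count of 0, is 0.153 to 0.183 CPM, and covers counting error only.

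Genes that reached 1 CPM in 3 or more of the 12 libraries were tested with limma 3.58.1 (R 4.3.3) on log2(CPM + 1), with all 4 groups in 1 fit, a mean-variance trend, two-sided tests and Benjamini-Hochberg adjustment over all tested genes at 0.05. Differences on this scale understate the change of low genes. CPM is not corrected for length, so levels are compared between libraries and not between genes. edgeR 4.0.16 (quasi-likelihood) and DESeq2 1.42.0 were alternatives on the recovered reads. In counts simulated at the depths of these libraries (12654 genes), limma called 91.9% of 99 genes changed by 1 and 100% of 98 genes changed by 2 (log2), and 11 of 12457 unchanged genes. The simulation drew every library from a common profile at a fixed dispersion of 0.02, with few changed genes and no outlying library. It checks the running of the test and does not give the error rates of this comparison, where WT library 4 stood apart. Exact permutation of 3 against 3 libraries cannot go below 0.1 and was not used.

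Groups came from the sample titles. Library numbers in the column names give the group and name a library only. Members and gene lists were chosen with earlier results of these data known. Of 1040 listed genes found in the table, 969 passed the filter, 217 of them higher and 237 lower; Aldoa, Atp5o and Ddit3 were not analysed here. Any list member could be named. Per-library values are given for the tested Myc network and rescue genes. Of each other list the rule allows them for up to 2 rises and 2 falls with separate groups and the member of highest CPM, and over all genes for the 12 largest rises and 12 largest falls with separate groups, leaving out predicted genes; only some of these are printed. Promoters were RefSeq windows of GRCm38.p6, matched by symbol for 10070 tested genes.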

Additional observations from a re-analysis of the deposited data

Results flagged for a closer look

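The effect of Myc loss in cells with Mlx (MycKO against WT) and in cells without it (DKO against MlxKO) differed by an interaction term of the limma fit in 6108 genes. Each genotype was a separate culture, so this term cannot tell Mlx status from the culture. Within the extended network and the rescue list, the terms below are the DKO-against-MlxKO difference minus the MycKO-against-WT difference in log2(CPM + 1). Mycl had a term of -3.83 (adjusted p = 4.64e-05), as it was -0.72 in DKO against MlxKO and 3.11 in MycKO against WT. Hmga1 had a term of -3.57 (adjusted p = 2.28e-05), with -0.74 and 2.83, and Shmt1 a term of -0.49 (adjusted p = 0.0323), with -0.77 and -0.28. The term of Mxd3 was -1.12 (adjusted p = 0.00584), and that of Mycn, -1.65, is a description, since Mycn passed the filter on low values only through the MycKO libraries. Those of Arrdc4, Mxd4 and Mxi1 were 1.39, 0.72 and 0.59 (adjusted p = 0.00872, 0.0418 and 0.0316). Myc itself had no called term (adjusted p = 0.149). Single outlying libraries were not tested.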

How the results depend on the processing

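The count of 6176 genes moved by less than 1.5 times under each other normalization, filter, variance model and tool, from 4184 when only the 2 groups compared were fitted to 6360 by DESeq2, and went from 4927 (without WT library 2) to 6951 (without WT library 4) when 1 library was left out. Requiring a change of at least 1 on the log2 scale left 1845 genes, 1000 in DKO against MlxKO, 3186 for the interaction and 611 in the primary MEFs, with 59.0% of the first higher in MycKO and 10.8% of those lower holding an E-box. The share of higher genes was 51.0%, and 49.5% with a mean of at least 5 CPM, 52.5% with only the groups compared and 50.6% to 52.3% with 1 library left out. DKO against MlxKO gave 6011 calls with only its groups fitted and 2352 to 3521 with 1 library left out, the interaction 4956 to 7299 and the primary comparison 4736 to 6236. The lowest autosome median was -0.186 to -0.122 and the highest 0.171 to 0.259 with 1 library left out. The calls of 33 of 55 lists stayed within 1.5 times with only the groups compared, of 16 with a change of at least 1, and of 45 to 55 in each other setting. Of 238 named genes, 198 kept direction and call with only the groups compared and 213 without WT library 2. Adjustment for base composition and length was chosen after seeing the data. With it, 207 of them kept direction and call, and the total number of genes called was 5912. It turned Cdkn2a to -0.22 (adjusted p = 0.0313, limma) and Clock to 0.0040 (adjusted p = 0.969, limma), and the cause was not tested. The splits without WT library 4 and without MycKO library 9 were also chosen after seeing the data for the lists. No paired analysis was possible because nothing links the number in a column name to a replicate number in a sample title. At this depth, genes under about 0.183 CPM in every library cannot be told from 0.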

Other observations

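Imprinted genes and the IGF system changed in MycKO against WT by 8 rises and 4 falls of 19 (8 to 10 higher and 4 to 6 lower with 1 library left out), beside 24.4% and 23.5% of all genes. Igfbp5, an IGF-binding protein, was at 34.1, 42.4 and 15.3 CPM in the WT and 274, 383 and 339.5 CPM in the MycKO libraries (3.50 ± 0.28, adjusted p = 1.88e-06). Igfbp7 (3.32), Igfbp6 (3.04) and the growth factor Igf2 (2.10) rose, while Plagl1, an imprinted zinc-finger factor, fell by 2.99 ± 0.24. Ligands and inhibitors of TGF-beta and BMP signalling counted 7 higher and 4 lower of 19 (median 0.0062), or 8 and 9 without WT library 4 (median -0.17). Inhba, which encodes activin A, was at 45.6, 36.5 and 283 CPM in the WT and 548, 605 and 613 CPM in the MycKO libraries (2.90 ± 0.54, adjusted p = 0.00103), above every WT library in every MycKO library. Grem1, a BMP antagonist, rose by 2.48, and Gdf6, a BMP-family ligand, fell by 2.51 ± 0.24.

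Circadian genes fell in 9 of 17 cases and rose in 1 (median -0.43; 0 to 2 higher and 7 to 10 lower with 1 library left out, 3 and 10 with GC content and length corrected), beside 23.5% lower and 24.4% higher of all genes. Rora, a nuclear receptor that activates the clock gene Bmal1, was at 79.9, 77.6 and 53.7 CPM in the WT and 16.1, 20.6 and 18 CPM in the MycKO libraries (-1.88 ± 0.16, adjusted p = 3.51e-06), and Per2, a repressor of the clock, fell by 1.04 ± 0.22. In the primary MEFs 11 of 17 rose and 1 fell, beside 20.4% and 21.9% of all genes there. Sterol genes counted 10 lower and 3 higher of 25 (2 to 4 higher and 10 to 11 lower with 1 library left out). Abca1, the cholesterol exporter, was at 126, 115 and 41 CPM in the WT and 22.1, 28.6 and 24.9 CPM in the MycKO libraries (-1.71 ± 0.32, adjusted p = 0.00113). Lysosomal genes rose in 10 of 25 cases and fell in 1, or in 9 and 6 without WT library 4. Ctsk, the protease cathepsin K, was at 10.9, 9.82 and 1.58 CPM in the WT and 33.9, 24.9 and 25.6 CPM in the MycKO libraries (2.06 ± 0.43, adjusted p = 0.00219). The size of its difference rested in part on WT library 4, which held the least Ctsk.

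Chemokines and cytokines had 8 higher and 2 lower of 18 (6 to 9 higher and 2 to 3 lower with 1 library left out), and complement and acute-phase genes had 2 higher and 5 lower of 10 (1 to 2 higher and 3 to 6 lower with 1 library left out). Of these 10, 1 passed the filter on low values only through the MycKO libraries and 1 only through the WT libraries, so the complement counts are a description. Genes of the ATF4 response counted 1 higher and 5 lower of 16 (1 and 8 without WT library 4; 1 to 2 higher and 5 to 8 lower with 1 library left out, 0 and 7 with GC content and length corrected), antioxidant genes of NRF2 4 higher and 4 lower of 19 (4 to 6 higher and 3 to 5 lower with 1 library left out), and chaperonins and mitochondrial chaperones 1 higher and 1 lower of 13 (0 to 2 higher and 1 to 4 lower with 1 library left out, 1 and 3 with GC content and length corrected). For purine and pyrimidine synthesis the counts were 4 higher and 7 lower of 25 (2 to 4 higher and 5 to 8 lower with 1 library left out), and for polyamine genes 0 higher and 2 lower of 10 (0 higher and 1 to 3 lower with 1 library left out, 1 and 4 with GC content and length corrected). High mobility group proteins had 2 higher and 3 lower of 9 (2 to 3 higher and 1 to 5 lower with 1 library left out), and matrix proteases and their inhibitors 6 higher and 4 lower of 17 (5 and 7 without WT library 4; 3 to 5 higher and 3 to 7 lower with 1 library left out, 2 and 5 with GC content and length corrected). Neural markers had 2 higher and 1 lower of 4 (2 higher and 1 lower with 1 library left out). The sex-linked genes had 0 higher and 1 lower of 5, or 4 higher and 1 lower without WT library 4.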
